A study of Mus musculus with 15 samples.

Results

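Dcxr, Crip2, Abhd11os, Cpne2 and 1700028P14Rik are 5 of the 36144 genes in the deposited expression table, and all 5 were among the 15425 genes that were tested. They were picked from earlier results of these data as genes outside the usual p53 target lists that were higher in motor neurons of mice with spinal muscular atrophy (SMA) than in wild-type (WT) littermates. Their SMA and WT levels are therefore given as a description, with no test. The questions asked here are how their level followed that of Cdkn1a, the p53-induced cell cycle inhibitor p21, from library to library, and how far it returned toward WT under each of 3 drugs.

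Lumbar motor neurons of segments L1 to L3, labelled with cholera toxin subunit B, were cut out by laser capture from pups at postnatal day 6, and poly(A) RNA was amplified and sequenced. WT pups were Smn+/+;SMN2;SMNdelta7 and SMA pups were Smn-/-;SMN2;SMNdelta7, so every group carried the human SMN2 and SMNdelta7 transgenes. All mice were on the FVB background, with males and females in equal proportion. WT and SMA mice received vehicle. The other groups were SMA mice injected intraperitoneally each day from birth: SMA+MW150 at 5 mg/kg (MW150 inhibits p38 alpha MAP kinase), SMA+Pifithrin-alpha at 2.2 mg/kg (an inhibitor of p53) and SMA+SMN-C3 at 3 mg/kg (a modifier of SMN2 splicing). Each group had 3 biological replicates, named below by group and number. How many mice went into a library is not given in the sources used here.

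Loss of SMN in motor neurons is known to stabilise p53, and Cdkn1a is a direct p53 target. Dcxr encodes dicarbonyl and L-xylulose reductase, a short-chain dehydrogenase of the uronate cycle that turns L-xylulose into xylitol and also reduces reactive dicarbonyls. Crip2 encodes a small cytoplasmic protein with LIM domains, zinc-binding folds that join other proteins. Cpne2 belongs to the copines, cytosolic proteins that bind membranes when calcium rises. Abhd11os is a noncoding transcript on the strand opposite to Abhd11, which encodes a mitochondrial hydrolase. No role is given here for 1700028P14Rik.

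Levels are in TPM, a unit that scales reads for transcript length and gives every library the same total. In these bulk samples, fewer cells of a type and less RNA per cell cannot be told apart. Smn1, the deleted gene, averaged 16.3 ± 7.18 TPM over the WT libraries (SD, n = 3, as for every group mean that follows) and did not exceed 1.5 TPM in any of the 12 Smn-/- libraries. The 7 motor neuron markers, with Chat, Isl1 and Mnx1 among them, summed to between 1080 and 3011 TPM, and none was at 0 in a whole group. Mitochondrially encoded genes took 21.9% of the TPM of library WT 1 and 20.4% of that of SMA+Pifithrin-alpha 3, against 3.76% to 12.6% elsewhere, so counts of called genes are also given without these 2 libraries. Microglial markers (10 genes) summed to 56.0 to 88.7 TPM in WT, 160 to 191 TPM in SMA, 123 to 166 TPM in SMA+MW150, 67.6 to 123 TPM in SMA+Pifithrin-alpha and 88.7 to 114 TPM in SMA+SMN-C3. Their part in the results below was not tested.

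On GRCm38, in the GENCODE M21 annotation, Dcxr (ENSMUSG00000039450.11) lies on the minus strand of chromosome 11 at 120725399 to 120727281, and Crip2 (ENSMUSG00000006356.10) on the plus strand of chromosome 12 at 113140236 to 113145506. Cdkn1a (ENSMUSG00000023067.14) lies on the plus strand of chromosome 17 at 29090976 to 29100727. The 250 bases before the start of Dcxr, Crip2 and Cdkn1a are shown because these 3 genes had the most similar profiles over the libraries. Sequences are from RefSeq on GRCm38.p6, and capitals mark matches to the p53 half-site consensus, a pattern that is the same on both strands.
Dcxr, chr11:120727285-120727534, minus strand: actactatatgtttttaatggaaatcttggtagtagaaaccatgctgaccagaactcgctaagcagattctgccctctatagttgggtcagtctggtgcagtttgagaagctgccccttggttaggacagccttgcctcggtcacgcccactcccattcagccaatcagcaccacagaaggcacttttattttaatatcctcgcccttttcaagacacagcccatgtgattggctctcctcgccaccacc
Crip2, chr12:113139986-113140235, plus strand: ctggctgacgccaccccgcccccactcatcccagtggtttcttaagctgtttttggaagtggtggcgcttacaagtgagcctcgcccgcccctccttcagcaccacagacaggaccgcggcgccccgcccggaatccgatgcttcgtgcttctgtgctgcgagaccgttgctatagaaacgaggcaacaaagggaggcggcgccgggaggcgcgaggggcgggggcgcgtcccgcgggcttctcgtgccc
Cdkn1a, chr17:29090729-29090978, plus strand: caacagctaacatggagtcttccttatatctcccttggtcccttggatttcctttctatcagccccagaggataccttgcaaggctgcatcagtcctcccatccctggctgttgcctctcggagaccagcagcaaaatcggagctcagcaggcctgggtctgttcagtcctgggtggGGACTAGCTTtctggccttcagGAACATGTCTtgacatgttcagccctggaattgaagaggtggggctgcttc

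The Cdkn1a window held 2 half-sites, starting 73 and 51 bases before the start, spaced closely enough to count as a pair (at most 13 bases between them). Windows were searched over 300 bases, from 250 before to 50 after each start. None of the windows of the 5 genes held a match, nor did the window of the second Cdkn1a start. Of 32851 windows of 27025 genes, 8.36% held a half-site and 0.0731% a pair. The GC content of the windows was 50.7% for Dcxr, 66.3% and 73.7% for the 2 starts of Crip2, 58.3% for Abhd11os, 76.0% for Cpne2 and 51.3% for 1700028P14Rik, beside a median of 52.7% over all windows. A match describes letters in this window, and its absence says only that these letters are not there.

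WT libraries held 17.1, 12.0 and 13.9 TPM of Dcxr, and SMA libraries 474, 269 and 213 TPM. It stood at 237, 232 and 204 TPM in SMA+MW150, at 191, 190 and 66.2 TPM in SMA+Pifithrin-alpha, and at 109, 110 and 98.3 TPM in SMA+SMN-C3. Each of the 12 Smn-/- libraries lay above each WT library, with SMA 1 the highest and SMA+Pifithrin-alpha 3 the lowest of the 12. The SMA mean of 319 ± 137 TPM was 22.3 times the WT mean of 14.3 ± 2.62 TPM.

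For Crip2 the WT libraries read 12.7, 25.4 and 20.9 TPM, and the SMA libraries 504, 267 and 197 TPM. It stood at 198, 216 and 168 TPM in SMA+MW150, at 178, 156 and 56.8 TPM in SMA+Pifithrin-alpha, and at 88.1, 81.9 and 129 TPM in SMA+SMN-C3. SMA 1 was again the highest and SMA+Pifithrin-alpha 3 the lowest of the Smn-/- libraries, and none of them overlapped WT. The SMA mean of 323 ± 161 TPM was 16.4 times the WT mean of 19.7 ± 6.45 TPM.

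Abhd11os (ENSMUSG00000085042.8, annotated as a transcribed unitary pseudogene) lies on the minus strand of chromosome 5 at 135012114 to 135013253. Its levels were 3.71, 8.16 and 3.02 TPM in WT, 113, 46.8 and 46.2 TPM in SMA, 52.1, 50.2 and 66.4 TPM in SMA+MW150, 55.8, 40.0 and 15 TPM in SMA+Pifithrin-alpha, and 28, 29.8 and 24.7 TPM in SMA+SMN-C3. All 12 Smn-/- libraries lay above WT. The SMA mean of 68.5 ± 38.2 TPM was 13.8 times the WT mean of 4.96 ± 2.79 TPM, and SMA 1 was more than both other SMA libraries together.

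Cpne2 (ENSMUSG00000034361.10) lies on the plus strand of chromosome 8 at 94532990 to 94570531. Its WT libraries read 5.41, 6.43 and 3.24 TPM, its SMA libraries 34.1, 37.5 and 20.4 TPM. It stood at 30.7, 20.8 and 22.7 TPM in SMA+MW150, 24.5, 15.3 and 5.86 TPM in SMA+Pifithrin-alpha, and 10.1, 5.78 and 7.82 TPM in SMA+SMN-C3. SMA+Pifithrin-alpha 3 and SMA+SMN-C3 2 fell within the WT range, while the SMA and SMA+MW150 libraries did not. The SMA mean was 30.7 ± 9.01 TPM and the WT mean 5.03 ± 1.63 TPM, a ratio of 6.10.

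1700028P14Rik (ENSMUSG00000033053.4, 1 annotated transcript) lies on the minus strand of chromosome 19 at 23558753 to 23652812. It was listed at 0 in WT 1 and WT 2 and at 0.0628 TPM in WT 3, at 2.45, 1.62 and 1.61 TPM in SMA, at 2.19, 1.26 and 1.78 TPM in SMA+MW150, and at 1.05, 2.22 and 1.48 TPM in SMA+Pifithrin-alpha. Under SMN-C3 it was listed at 0 in replicates 1 and 3 and at 0.0494 TPM in replicate 2. The gene thus had WT-like and high groups with nothing between, and it passed the filter of at least 1 TPM in at least 3 libraries only through the 9 libraries of the 3 high groups. At these levels no fold is given.

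**Figure D1:**
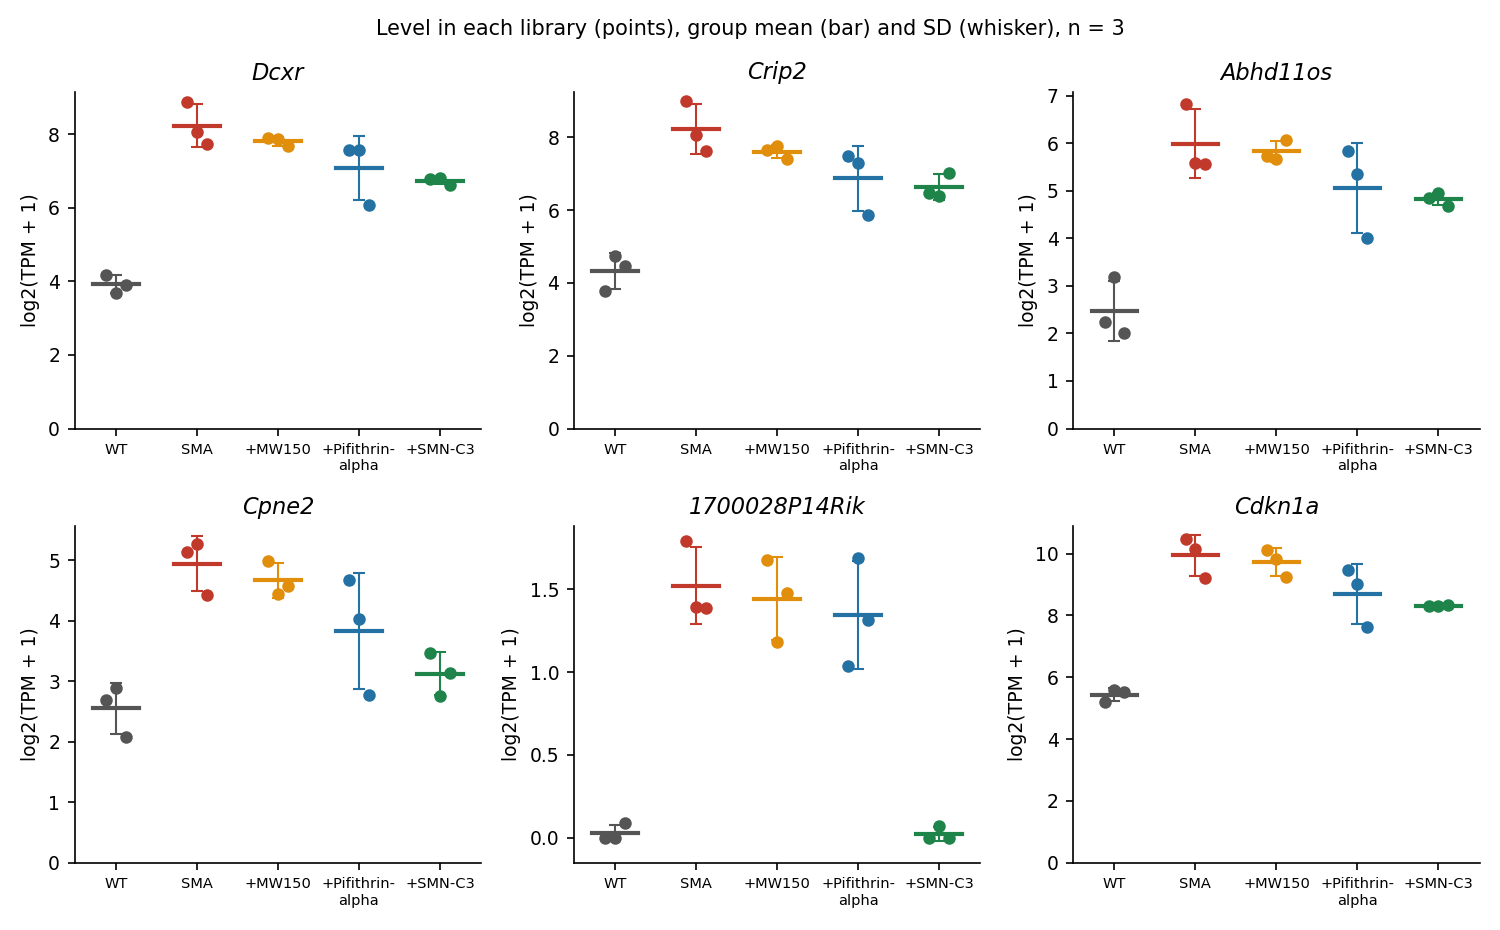
Level of the 5 genes and of Cdkn1a in each library as log2(TPM + 1), by group, with 1 point per library (n = 3), the mean as a bar and the SD as a whisker. All 5 genes were higher in the 3 SMA than in the 3 WT libraries, SMA+Pifithrin-alpha held 1 low library for 5 of the 6 genes shown, and 1700028P14Rik was at or near 0 in SMA+SMN-C3.

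All 5 genes had every SMA library above every WT library; 14.5% of all tested genes did so, and nothing is read from this count because it is what the genes were chosen for. By the order of group means, Dcxr, Crip2, Abhd11os and Cpne2 ran SMA, SMA+MW150, SMA+Pifithrin-alpha, SMA+SMN-C3, WT, as did Cdkn1a. Among neighbours in this order the libraries overlapped, except that SMA+MW150 lay above SMA+Pifithrin-alpha for Dcxr and SMA+SMN-C3 lay above WT for Dcxr, Crip2, Abhd11os and Cdkn1a. For 1700028P14Rik, SMA+SMN-C3 and WT shared the lowest place, and SMA+Pifithrin-alpha lay above both without overlap.

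Comparisons among the 3 treated groups use no library by which the genes were chosen. They were made with limma on log2(TPM + 1), and p-values were adjusted with Benjamini-Hochberg over all 15425 tested genes. 1700028P14Rik entered the tested genes only through its high groups, so its differences from SMA+SMN-C3 had to be there and are given as values with no test. Between SMA+MW150 and SMA+SMN-C3, Dcxr, Crip2, Abhd11os and Cpne2 were higher in each SMA+MW150 library than in each SMA+SMN-C3 library, a pattern shared by 27.5% of tested genes. The log2 difference was 1.07 for Dcxr (SE 0.36, 95% interval 0.31 to 1.83), with a limma adjusted p of 0.287. It was 0.97 for Crip2 (0.11 to 1.84), 1.0 for Abhd11os (0.06 to 1.94) and 1.54 for Cpne2 (0.65 to 2.44), with limma adjusted p-values of 0.381, 0.404 and 0.209. Cdkn1a differed by 1.41 (0.56 to 2.26), and 1700028P14Rik by 1.42. None of the 4 tested genes passed the adjusted threshold of 0.05, which 0.00648% of tested genes passed upward. Unadjusted limma p-values were under 0.05 for each of the 4 and for 11.5% of all tested genes. The median difference was 1.04 over the 4 and 0.30 over all tested genes. With median-of-ratios scaling, which puts the median of all tested genes at 0.0063, the differences were 0.73 for Dcxr, 0.63 for Crip2, 0.66 for Abhd11os and 1.22 for Cpne2, and none was called.

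This count of called genes depended on which libraries and groups set the spread. Without WT 1 and SMA+Pifithrin-alpha 3, which are in neither group, Dcxr and Cpne2 were called (limma adjusted p 0.0227 and 0.0211) with the same differences, as were 2.46% of tested genes. With only the 6 libraries of the 2 groups in the fit, Dcxr, Crip2, Abhd11os and Cpne2 were all called, as were 2.94% of tested genes. Most markers of other cell types lay on the same side: of the tested genes of each list, 10 of 10 microglial, 8 of 8 astrocyte, 8 of 8 oligodendrocyte lineage, 5 of 5 endothelial, 4 of 4 interneuron and 5 of 5 red blood cell markers were higher on average in SMA+MW150 than in SMA+SMN-C3, none of them called. Summed astrocyte markers ran from 723 to 1002 TPM in SMA+MW150 and from 538 to 594 TPM in SMA+SMN-C3, and summed oligodendrocyte lineage markers from 852 to 5346 TPM and from 563 to 1650 TPM, with no marker of either list at 0. Smooth muscle and pericyte markers were higher in 4 of 5, and motor neuron markers in 2 of 7. The part of these other cells in the result was not tested.

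Between SMA+MW150 and SMA+Pifithrin-alpha no gene of the 5 was called, and 0% of tested genes were; Dcxr alone had no overlap, as had 11.1% of tested genes. The differences ran from 0.10 (-0.56 to 0.75) for 1700028P14Rik to 0.84 (-0.05 to 1.73) for Cpne2, with a limma adjusted p of 0.529 for all but 1700028P14Rik (0.893). Without SMA+Pifithrin-alpha 3 they were 0.23 for Dcxr, 0.21 for Crip2, 0.23 for Abhd11os and 0.32 for Cpne2. Median-of-ratios scaling moved the median of all tested genes from 0.31 to 0.0345 here, put Dcxr, Crip2, Abhd11os and Cpne2 at 0.39, 0.38, 0.43 and 0.53, and turned 1700028P14Rik to -0.14.

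Between SMA+Pifithrin-alpha and SMA+SMN-C3 none of the 4 tested genes was called or free of overlap, beside 0% and 9.83% of tested genes. The differences were between 0.23 for Abhd11os (-0.70 to 1.17) and 0.70 for Cpne2 (-0.19 to 1.59). Without SMA+Pifithrin-alpha 3 they were 0.84 for Dcxr, 0.77 for Crip2, 0.77 for Abhd11os and 1.22 for Cpne2, with none called. 1700028P14Rik was higher in SMA+Pifithrin-alpha by 1.32.

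**Figure D2:**
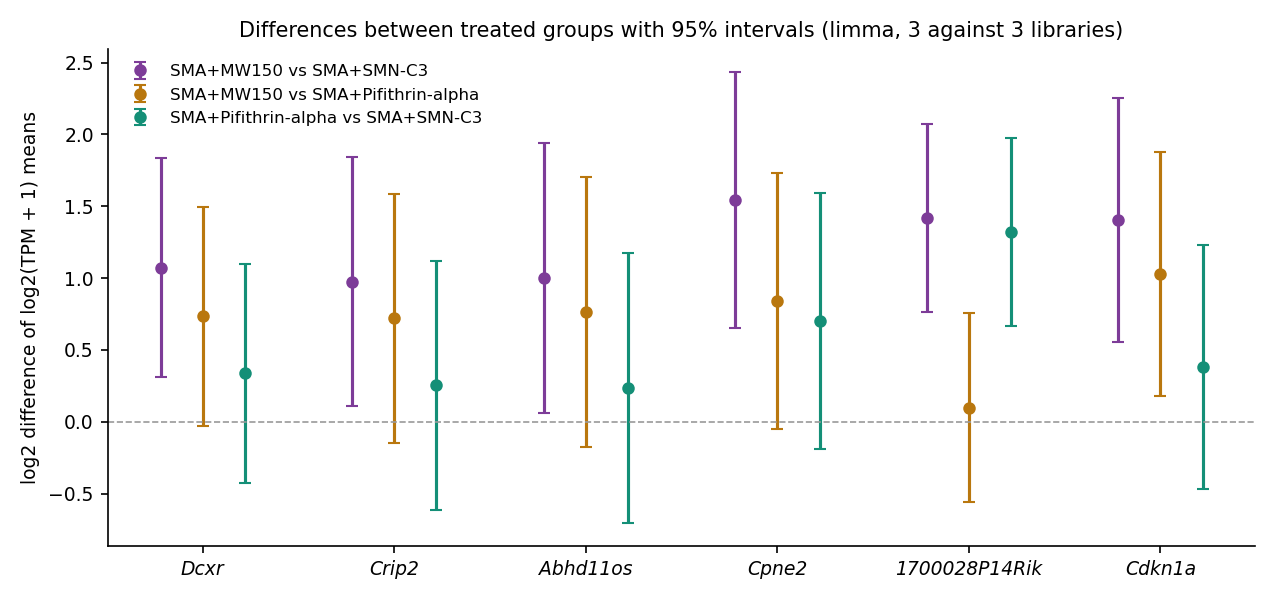
Differences of group means of log2(TPM + 1) between the treated groups for the 5 genes and Cdkn1a, with 95% intervals from limma (3 against 3 libraries). The intervals of Dcxr, Crip2, Abhd11os and Cpne2 lie above 0 for SMA+MW150 against SMA+SMN-C3 before adjustment and include 0 in the other comparisons; those of 1700028P14Rik against SMA+SMN-C3 are no test.

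Comparisons with SMA or WT share the libraries that chose the genes, and the 3 comparisons with each share one control group. They are given as a description, and nothing is read from the counts of called genes. Against SMA, no gene of the 5 was called under any drug, and limma called 0.00648%, 0.00648% and 0.0648% of tested genes lower under MW150, Pifithrin-alpha and SMN-C3. Under MW150 the 5 genes overlapped SMA throughout, where 3.41% of tested genes lay wholly below SMA, with differences from -0.63 for Crip2 to -0.08 for 1700028P14Rik.

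Under Pifithrin-alpha Dcxr and Crip2 lay wholly below SMA, as did 9.76% of tested genes, with differences of -1.16 (SE 0.36) and -1.35 (SE 0.41). Without SMA+Pifithrin-alpha 3 these were -0.66 and -0.83. Markers of other cell types were lower on average too: 10 of 10 microglial (median -1.27), 8 of 8 oligodendrocyte lineage (-1.29), 5 of 5 red blood cell (-1.16), 7 of 8 astrocyte, 4 of 5 endothelial and 3 of 4 interneuron markers, with 6 of 7 motor neuron markers (-0.52). Smooth muscle and pericyte markers were lower in 2 of 5. None was called, and their part in the result was not tested.

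Under SMN-C3 Dcxr, Crip2, Abhd11os and Cpne2 lay wholly below SMA, as did 18.2% of tested genes. The differences were -1.50 (SE 0.36) for Dcxr, -1.60 (0.41) for Crip2, -1.16 (0.44) for Abhd11os and -1.82 (0.42) for Cpne2, beside a median of -0.23 over all tested genes. For 1700028P14Rik the difference was -1.50, given with no test because it passed the filter only through its high groups. Without WT 1 and SMA+Pifithrin-alpha 3, limma called Dcxr, Crip2 and Cpne2 with the same differences, as it called 1.09% of tested genes. In this comparison 10 of 10 microglial, 8 of 8 oligodendrocyte lineage, 5 of 5 red blood cell, 5 of 5 endothelial, 4 of 4 interneuron and 7 of 8 astrocyte markers were also lower on average, and 2 of 5 smooth muscle and pericyte and 2 of 7 motor neuron markers. None was called, and their part was not tested.

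Against WT, limma called Dcxr, Crip2 and Abhd11os higher in SMA+MW150, where 0.136% of tested genes were called higher, and in SMA+Pifithrin-alpha, where 0.104% were. It called Dcxr in SMA+SMN-C3, beside 0.013% of tested genes. Dcxr was 15.7 times WT under MW150, 10.4 times under Pifithrin-alpha and 7.40 times under SMN-C3, with log2 differences of 3.89, 3.15 and 2.82 (SE 0.36 each). Crip2 was 9.85, 6.62 and 5.07 times WT in the same order, and Abhd11os 11.3, 7.45 and 5.54 times. Under Pifithrin-alpha 1 of the 5 genes was called when WT 1, SMA+Pifithrin-alpha 1 or SMA+Pifithrin-alpha 2 was left out. In these fits 8, 7 and 5 of all tested genes were called, in the same order. With only SMA+Pifithrin-alpha and WT in the fit, 0 of the 5 were called and 0 of all tested genes.

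Cpne2 was 4.92, 3.03 and 1.57 times WT and was not called (limma adjusted p 0.0609, 0.678 and 0.707). Without WT 1 and SMA+Pifithrin-alpha 3 it was called under MW150 (limma adjusted p 0.0101), beside 0.276% of tested genes. No test against WT is read for 1700028P14Rik. Libraries lay wholly above WT for 5 of the 5 genes in SMA+MW150 (17.9% of tested genes), for 4 in SMA+Pifithrin-alpha (4.79%) and for 3 in SMA+SMN-C3 (4.03%). The counts of 5 and 4 include 1700028P14Rik, which entered the tested genes only through its high groups. The 3 in SMA+SMN-C3 were Dcxr, Crip2 and Abhd11os. Without WT 1 and SMA+Pifithrin-alpha 3, these 3 were called in SMA+SMN-C3, beside 0.0459% of tested genes.

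The return of a gene was taken as the distance from the SMA mean to the treated mean over the distance from the SMA mean to the WT mean, on log2(TPM + 1), so 0% is the SMA level and 100% the WT level. Its denominator is the contrast that chose the genes, and it has no test. Under MW150 the median return of the 5 genes was 9.90%, from 4.60% for Abhd11os to 16% for Crip2, with Cdkn1a at 5.01%, and without SMA 1 the median was 2.51%. Under Pifithrin-alpha it was 26.9%, from 11.9% for 1700028P14Rik to 46.7% for Cpne2, with Cdkn1a at 27.8%, and without SMA+Pifithrin-alpha 3 the median was 15.3%. Under SMN-C3 it was 41%, from 33.1% for Abhd11os to 100.4% for 1700028P14Rik, with Cdkn1a at 36.2%.

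By gene, Dcxr returned by 9.90 ± 2.73% under MW150, 26.9 ± 20.2% under Pifithrin-alpha and 34.7 ± 2.11% under SMN-C3, and Crip2 by 16 ± 4.63%, 34.5 ± 22.9% and 41 ± 8.96%. Abhd11os returned by 4.60 ± 6.15%, 26.4 ± 27.1% and 33.1 ± 3.84%. The 3 genes thus stayed within 5 percentage points of Cdkn1a (36.2 ± 0.546%) under SMN-C3. Cpne2 returned by 11.5 ± 12.0%, 46.7 ± 40.3% and 76.1 ± 14.9%, and its lowest SMN-C3 library (61.6%) lay above the highest of Dcxr, Crip2, Abhd11os and Cdkn1a (47.4%). 1700028P14Rik returned by 5.25 ± 16.8%, 11.9 ± 21.9% and 100.4 ± 2.70%.

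The spread under Pifithrin-alpha rested mostly on 1 library for Dcxr, Crip2, Abhd11os and Cdkn1a, while Cpne2 differed among all 3 libraries. In SMA+Pifithrin-alpha 3 the return was 50.2% for Dcxr, 60.7% for Crip2, 56.7% for Abhd11os, 90.5% for Cpne2 and 51.9% for Cdkn1a, but 14% for 1700028P14Rik. In SMA+Pifithrin-alpha 1 it was 15.2%, 18.9%, 4.57%, 11.1% and 10.6% for the first 5 of these genes. In SMA+Pifithrin-alpha 2 it was 15.4%, 23.8%, 18.0%, 38.4% and 20.8% in the same order. SMA+Pifithrin-alpha 3 also had the mitochondrial share of 20.4% and the lowest sum of motor neuron markers, 1080 TPM. The part of library quality in its values was not tested.

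**Figure D3:**
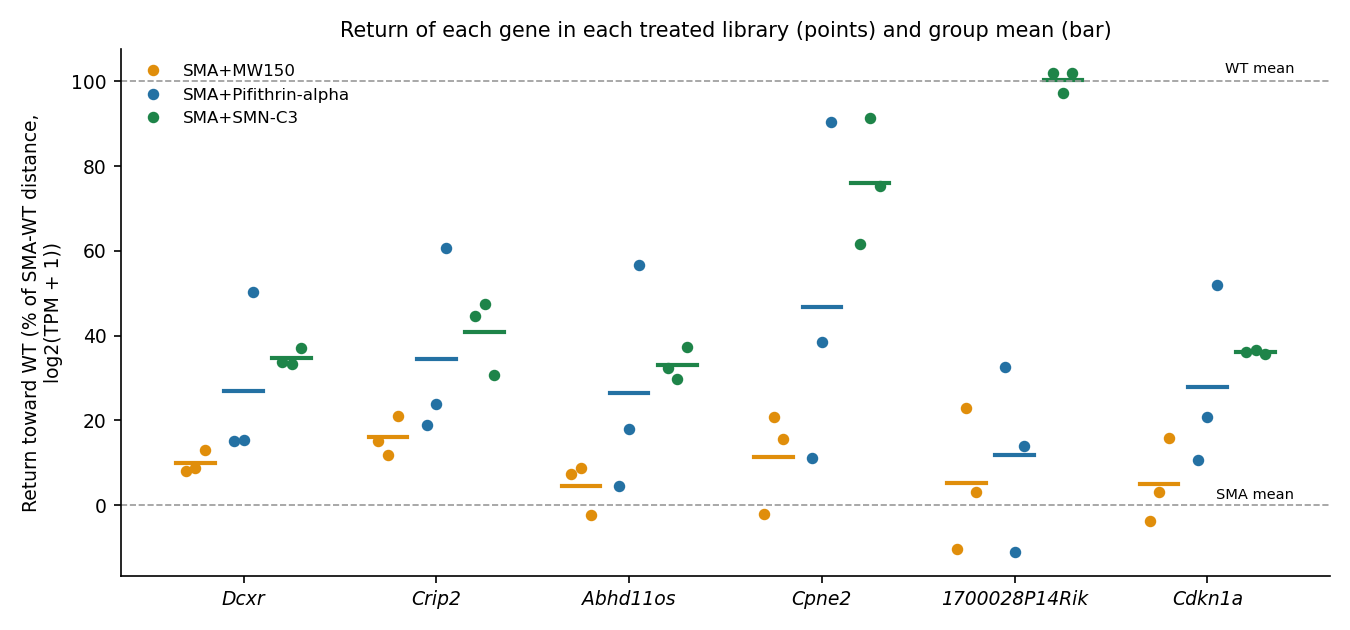
Return toward WT in percent of the distance between the SMA and WT means of log2(TPM + 1), for each treated library (points) and group mean (bars). SMN-C3 libraries lie between 29.7% and 47.4% for Dcxr, Crip2 and Abhd11os, higher for Cpne2 and near 100% for 1700028P14Rik, and 1 Pifithrin-alpha library stands above the other 2 for 5 of the 6 genes shown.

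Over the 9 treated libraries, none of which chose the genes, Dcxr, Crip2, Abhd11os and Cpne2 rose and fell with Cdkn1a. Cdkn1a was listed at 1115, 898 and 601 TPM in SMA+MW150, at 709, 515 and 194 TPM in SMA+Pifithrin-alpha and at 317, 313 and 324 TPM in SMA+SMN-C3. Pearson's r of log2(TPM + 1) with Cdkn1a was 0.964 for Dcxr (exact permutation p = 9.1e-05), 0.937 for Crip2 (6.6e-05), 0.892 for Abhd11os (0.00180) and 0.942 for Cpne2 (3.3e-04), all two-sided. Adjusted over all tested genes the exact p was 0.0294, 0.0294, 0.0412 and 0.0294, so these 4 passed, as did 7.50% of genes. For 1700028P14Rik r was 0.539, and without SMA+Pifithrin-alpha 3 it was 0.828. Both values include its gap to SMA+SMN-C3, so they are given with no test.

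Libraries share much of their variation, and the median r with Cdkn1a over 15424 genes was 0.525. Among these genes Dcxr ranked 14, Cpne2 76, Crip2 96, Abhd11os 447 and 1700028P14Rik 7479. Spearman's rho was 0.917 for Dcxr (exact p = 0.00131, adjusted 0.0592) and 0.983 for Crip2 (exact p = 4.96e-05, adjusted 0.0364). It was 0.783 for Abhd11os (exact p = 0.0172, adjusted 0.110) and 0.917 for Cpne2 (exact p = 0.00131, adjusted 0.0592). For 1700028P14Rik rho was 0.410, again with no test because of its gap to SMA+SMN-C3. By rank Crip2 alone of Dcxr, Crip2, Abhd11os and Cpne2 passed after adjustment, as did 0.739% of all tested genes.

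Leaving out the 2 libraries farthest from the median of Cdkn1a, SMA+MW150 1 and SMA+Pifithrin-alpha 3, left r at 0.954 for Dcxr, 0.923 for Crip2, 0.868 for Abhd11os, 0.910 for Cpne2 and 0.792 for 1700028P14Rik (n = 7). After each library was set relative to its group mean, with permutations kept within groups, r was 0.922 for Dcxr (exact p = 0.0417), 0.889 for Crip2 (exact p = 0.0324) and 0.888 for Cpne2 (exact p = 0.0417). In that comparison Abhd11os had 0.790 (exact p = 0.278) and 1700028P14Rik -0.05 (exact p = 0.954). Within groups 3 of the 5 genes thus had an exact p under 0.05, as had 10.2% of all tested genes, whose median r was 0.511. No gene passed there after adjustment.

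**Figure D4:**
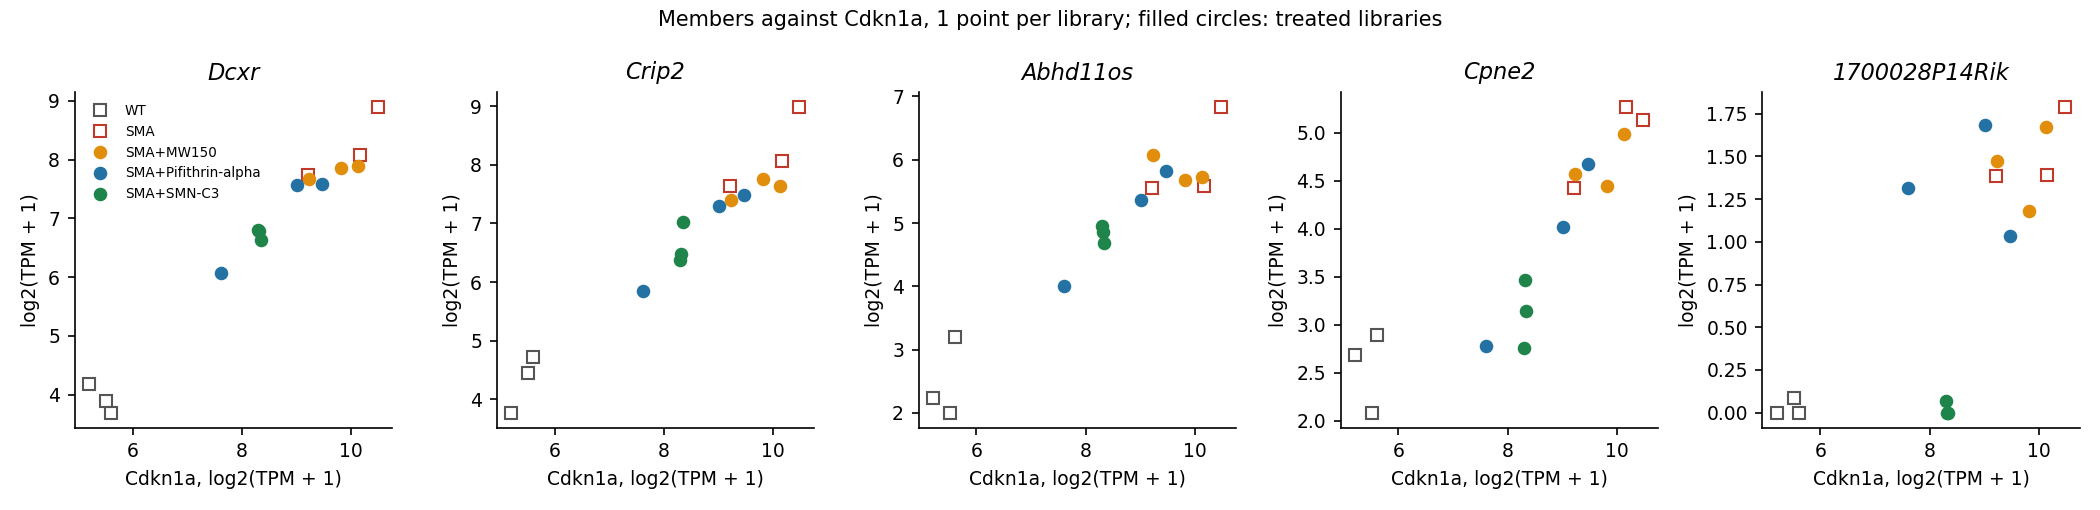
Level of each of the 5 genes against Cdkn1a, both as log2(TPM + 1), with 1 point per library; filled circles are the 9 treated libraries and open squares the WT and SMA libraries that chose the genes. Dcxr and Crip2 follow Cdkn1a along 1 line through the Smn-/- libraries, whereas 1700028P14Rik is near 0 in SMA+SMN-C3 and between 1.03 and 1.79 on the same scale in the other 9 Smn-/- libraries.

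Dcxr varied less as a share of Cdkn1a than on its own. Over the 12 Smn-/- libraries, SMA included, the ratio of Dcxr to Cdkn1a TPM ran from 0.212 to 0.368 with a median of 0.335. Its coefficient of variation was 17.0%, where that of Dcxr itself was 53.9% and that of Cdkn1a 57.6%. The ratio to Cdkn1a had a median of 0.279 and a coefficient of variation of 20.8% for Crip2, 0.0780 and 26.0% for Abhd11os, and 0.0299 and 19.7% for Cpne2. Crip2 and Dcxr also kept to each other, with a ratio of 0.741 to 1.31 and a coefficient of variation of 16.5%. These are descriptions over libraries that share a common scaling.

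Over all 15 libraries, the genes most like each of the 5 were sought among the 10008 other tested genes with a mean of at least 5 TPM, by Pearson's r of log2(TPM + 1), as a description. Dcxr was most like Cdkn1a (0.986), Crip2 (0.971) and Abhd11os (0.966). Crip2 was most like Cdkn1a (0.981), Acaa1b (0.979) and Dcxr (0.971), where Acaa1b encodes a peroxisomal thiolase. Abhd11os was most like Crip2 (0.967), Dcxr (0.966) and Cdkn1a (0.964). WT and the Smn-/- libraries form separate clusters, so these values largely restate the SMA against WT difference.

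Cpne2 and 1700028P14Rik had other nearest genes. Cpne2 was most like Trim47 (0.946), Rgs12 (0.937), which encodes a regulator of G-protein signalling, and the connexin gene Gjb5 (0.932), with Cdkn1a in place 9 (0.890). 1700028P14Rik was most like Ly6d (0.934), Plek2 (0.920) and 1700007K13Rik (0.911), with Cdkn1a in place 95 (0.755), out of 10009 genes.

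The deposited transcript table splits each gene among its annotated transcripts, and for Dcxr and Abhd11os the split itself differed between WT and Smn-/- libraries before adjustment. Both came with a larger mean share, in Smn-/- libraries, of a transcript in which a stretch removed as an intron from the other transcripts is kept. The kept stretches are shown on GRCm38, in capitals, with 20 bases of exon on each side.
Dcxr, kept in ENSMUST00000125242.7, chr11:120726168-120726288, minus strand: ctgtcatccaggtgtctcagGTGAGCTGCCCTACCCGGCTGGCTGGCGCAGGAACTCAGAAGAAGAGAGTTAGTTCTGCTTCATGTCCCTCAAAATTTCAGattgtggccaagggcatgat
Abhd11os, kept in ENSMUST00000154060.1, chr5:135012313-135012449, minus strand: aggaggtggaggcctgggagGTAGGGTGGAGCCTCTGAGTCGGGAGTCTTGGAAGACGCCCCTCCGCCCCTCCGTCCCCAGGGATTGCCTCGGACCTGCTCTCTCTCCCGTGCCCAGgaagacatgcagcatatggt

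The Dcxr stretch is intron 4 of the 8-exon transcript, 81 bases at 120726188 to 120726268. The Abhd11os stretch is intron 3 of its 4-exon transcript, 97 bases at 135012333 to 135012429, and lies outside the part shared with Abhd11. Each begins with GT and ends with AG. ENSMUST00000125242.7 is annotated as a retained intron transcript, while ENSMUST00000154060.1 is a noncoding transcript of a noncoding gene.

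The Dcxr transcript with the kept intron had 0, 0 and 0.928 TPM in the WT libraries, against 97.9, 53.2 and 33.8 TPM in those of SMA. It took 20.7%, 19.7% and 15.8% of Dcxr TPM in SMA, 18.5%, 17.4% and 21.1% in SMA+MW150, and 19.2%, 23.2% and 22.3% in SMA+Pifithrin-alpha. With SMN-C3 it took 15%, 8.12% and 5.98%, all below the 9 other Smn-/- libraries, a difference that was not tested. The mean share was 17.2% over the 12 Smn-/- libraries and 2.23% in WT, with at most 6.70% in any WT library. Transcripts were tested if they held at least 10% of their gene's TPM pooled over all libraries. This transcript did so only through the Smn-/- libraries, so its share is given with no test. The main coding transcript ENSMUST00000106148.9 took 75.3% in WT and 58.9% in Smn-/- libraries. An exact permutation test of 3 against 12 libraries gave p = 0.00220 for it, the smallest that 455 splits allow. Adjusted over all 18329 transcripts this was 0.267.

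For Abhd11os, the transcript with the kept stretch was listed at 0, 0.484 and 1.30 TPM in WT, or 0%, 5.94% and 43.1% of the gene. It took between 45.2% and 85.8% in every Smn-/- library, with a mean of 76.4%, above each WT library. The difference of 60.1 percentage points had an exact permutation p of 0.00220, adjusted 0.267. Its share was 83.2%, 74.3% and 73.0% in SMA and 73.9%, 79.8% and 45.2% in SMA+SMN-C3. The spliced ENSMUST00000136022.7 took 52.5% in WT and 15.5% in Smn-/- libraries (exact p = 0.00440, adjusted 0.318).

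Of the 9 transcripts of the 5 genes that were tested for share, 5 had an exact p under 0.05, as had 10.2% of all 18329 transcripts tested, and none passed after adjustment, as 0% of all did. The 5 include the Dcxr transcript with the kept intron, whose p is not read because of how it entered the test. Also among them was a retained intron transcript of Cpne2, ENSMUST00000156894.1, with 26.8% in WT and 7.34% in Smn-/- libraries (exact p = 0.0308, adjusted 0.436). Crip2 was carried by ENSMUST00000084882.8 throughout, at 98.5% in WT and 98.1% in Smn-/- libraries. All 12 Smn-/- libraries lay above WT for 0.573% of transcripts, below WT for 0.6%, and above WT for 16 of the 2073 retained intron transcripts (0.772%), whose median difference was -1.11 percentage points.

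The WT and SMA libraries in these share tests are the ones that chose the genes by level. Without the SMA libraries the difference was 14.5 percentage points for the Dcxr intron transcript, given with no test. For the Abhd11os transcript it was 60.0 (exact p = 0.00455). Without WT 1 and SMA+Pifithrin-alpha 3 the differences were 13.4 for Dcxr, again with no test, and 51.4 for Abhd11os (exact p = 0.0128). The WT shares rest on transcripts of a few TPM or less, and the reads behind them are not known.

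**Figure D5:**
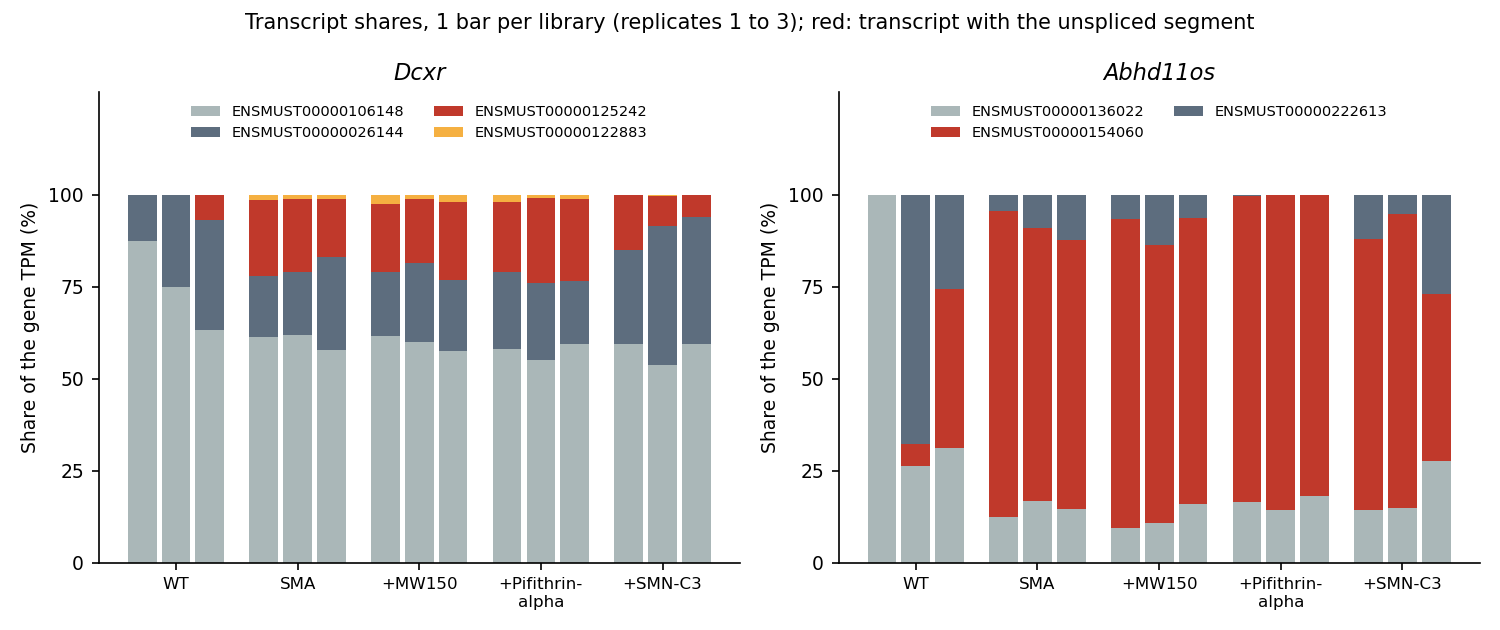
Share of the gene's TPM taken by each annotated transcript of Dcxr and Abhd11os, with 1 stacked bar per library; red marks the transcript that keeps the stretch shown above. Red takes 0% to 6.70% of Dcxr in WT and 5.98% to 23.2% in the Smn-/- libraries, and 0% to 43.1% and 45.2% to 85.8% of Abhd11os.

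Most annotated neighbours of the 5 genes had smaller ratios between SMA and WT than the genes themselves. Cbr2, after Dcxr, was listed at 0 in WT, SMA, SMA+MW150 and SMA+Pifithrin-alpha. Crip1, a LIM gene 809 bases after Crip2, averaged 5.02 ± 2.43 TPM in WT and 10.8 ± 4.08 TPM in SMA, and Mta1 on its other side 2.95 ± 1.71 and 6.00 ± 0.743 TPM. Fam192a, after Cpne2, averaged 29.3 ± 3.20 TPM in WT and, in SMA, 42.4 ± 8.65 TPM. Nlrc5, before Cpne2, averaged 0.0943 TPM in WT and 0.703 TPM in SMA libraries.

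Abhd11 shares 62 bases with Abhd11os on the opposite strand, and whether the counting used strand is not given in the sources used here, so reads from these bases cannot be told apart. Abhd11 averaged 60.8 ± 13.5 TPM in WT, 85.1 ± 14 TPM in SMA, 79.9 ± 8.99 TPM in SMA+MW150, 67.1 ± 35.9 TPM in SMA+Pifithrin-alpha and 82.3 ± 23.3 TPM in SMA+SMN-C3. Its SMA mean was therefore less than 1.5 times its WT mean, against 13.8 times for Abhd11os. The pseudogenes inside 1700028P14Rik on the other strand, AC132088.1 and Gm9493, averaged at most 0.235 TPM in any group.

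Relatives and pathway partners of the 5 genes are given as a description. The 5 were chosen for standing above the same WT libraries, so calls against WT cannot set them apart from relatives. Of 10 tested genes of the uronate and xylulose pathway, limma called Dcxr and no other against WT under each drug, at the adjusted threshold. Akr1a1, an aldehyde reductase that acts earlier in the pathway, averaged 488 TPM in WT libraries and 711 TPM in SMA libraries. Xylb, the xylulokinase downstream, averaged 0.819 and 2.08 TPM, and Ugdh, which makes UDP-glucuronate, 17.2 and 15.1 TPM. The median change of the list from WT was 0.40 under MW150, 0.24 under Pifithrin-alpha and 0.53 under SMN-C3, beside 0.31, 0.02 and -0.0042 over all tested genes.

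Among 6 tested CRIP and CSRP genes, Crip2 alone was called against WT, under MW150 and Pifithrin-alpha, and none under SMN-C3. Nothing is read from this, since Crip2 was chosen by the same WT libraries. Csrp1 averaged 14.4 TPM in WT and 38.9 TPM in SMA, and Csrp2 64.2 and 63.9 TPM. Of 8 tested copines none was called in any comparison of a treated group. Cpne6, the most abundant of them, averaged 353 TPM in WT and 249 TPM in SMA libraries, and Cpne8 20.2 and 25.5 TPM. Of 17 tested ABHD hydrolase genes none was called in those comparisons either; Abhd4 averaged 20.3 TPM in WT libraries and 58.8 TPM in SMA libraries.

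The p53 target list, with 44 tested genes and Cdkn1a among them, gives the setting. Against WT, limma called 5 of its genes higher under MW150 (Cdkn1a, Fas, Gtse1, Mdm2 and Plk2), 6 under Pifithrin-alpha (Ccng1, Cdkn1a, Fas, Perp, Plk2 and Pmaip1) and Cdkn1a alone under SMN-C3. Over all tested genes 21, 16 and 2 were called higher in the same order (0.136%, 0.104% and 0.013%). Between SMA+MW150 and SMA+SMN-C3 its median difference was 0.67, against 1.04 for Dcxr, Crip2, Abhd11os and Cpne2, 1.41 for Cdkn1a and 0.30 for all tested genes. From SMA to SMA+SMN-C3 the list's median change was -0.73, with 43 of 44 genes lower and Ddit4l alone called, where 0.0648% of tested genes were called lower. The list and the 5 genes were both chosen with results of these data known.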

How the data were processed

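RNA of laser-captured mouse motor neurons was sequenced in 15 libraries. The authors deposited TPM values per gene and per transcript, made with kallisto 0.44.0, and DESeq2 is also named, per the submitters' processing notes, with builds GRCm38.p6 and mm10. Trimming and strand settings are not given in the sources used here. Of 118489 transcripts, 116728 (98.5%) matched GENCODE M21. TPM keeps no depth, so the depth is unknown and no counting interval is given; the precision shown is the spread between replicates.

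The filter kept genes that reached 1 TPM in 3 or more of the libraries. From log2(TPM + 1), 1 limma 3.58.1 model (R 4.3.3, trended variances, 1 mean per group) gave two-sided tests, adjusted with Benjamini-Hochberg within each comparison over all tested genes (threshold 0.05). On simulated data of SMA+MW150 against SMA+SMN-C3 (15425 genes, 200 changed), 0%, 72.5% and 99.5% of changes of log2 1, 2 and 4 were recovered. At log2 2, 9.94% of the calls were false, above the threshold of 0.05, and at log2 4, 0.995%. Correlations and transcript shares (transcripts with at least 10% of a gene of at least 5 TPM) used exact permutation tests in Python 3.11.15 with numpy 2.4.6. Ranks and the Benjamini-Hochberg adjustment of the correlations came from scipy 1.17.1. The adjustment of both was planned over the 5 genes and was made over all features instead.

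The 5 genes and all lists were chosen with earlier results of these data known. Other genes named by rule are Cdkn1a, Smn1, annotated neighbours, the 3 genes most like each and list genes called; relatives given without a call were picked after their values were seen. Alternatives covered pseudocount, filter, scaling, mitochondrial genes, array weights, covariates, the replicate block and each library left out.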

Additional observations from a re-analysis of the deposited data

How the results depend on the processing

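Of 711 alternative values of the 5 genes' changes in 9 comparisons, 634 kept their direction and their side of the threshold, 13 lost a call, 49 gained one and 15 changed direction. The count of the 5 genes called was 1 with a pseudocount of 0.1 and with no filter, and 4 without WT 1 and SMA+Pifithrin-alpha 3 and with array weights, for SMN-C3 against SMA (0 in the report). These counts include 1700028P14Rik, whose calls against SMN-C3 or WT are not read. For SMN-C3 against WT (1 in the report) it was 0 with no filter, 3 with median-of-ratios scaling, without those 2 libraries and with array weights, and 2 with the mitochondrial share as a covariate. For Pifithrin-alpha against WT (3) it was 1 with no filter, 5 with array weights and 0 with only the groups compared. With 1 library left out it was 1 to 3, beside 5 to 30 of all tested genes. For SMA+MW150 against SMA+SMN-C3 (0) it was 3 without those 2 libraries, 5 with array weights and 5 with only the groups compared. Array weights also gave 3 for Pifithrin-alpha against SMA, 5 for MW150 against WT, 2 for MW150 against Pifithrin-alpha and 5 for Pifithrin-alpha against SMN-C3. With this setting 5155, 248, 6816 and 5780 of all tested genes were called, in the same order. Calls under array weights in comparisons with Pifithrin-alpha were thus spread widely over the tested genes, and nothing is read from them for the 5. Over all tested genes, calls for SMA+MW150 against SMA+SMN-C3 numbered 1 in the report, 375 without the 2 libraries, 453 with only the groups compared and 1748 with array weights. For SMN-C3 against SMA they numbered 10, 166, 0 and 331 in the same order, for SMN-C3 against WT 3, 7, 2 and 59, for MW150 against WT 22, 42, 12 and 248, and for Pifithrin-alpha against WT 18, 20, 0 and 3760. Dropping libraries changes the number of genes tested and the spread; the cause of the other shifts was not tested. Dcxr stayed called against WT under all 3 drugs in each fit with 1 library left out (limma adjusted p up to 0.0495 for SMN-C3), while Crip2 and Abhd11os did so in 3 and 2 of 6 such fits under Pifithrin-alpha.

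Directions that turned were all of small changes. For 1700028P14Rik they were 0.0085 (median-of-ratios scaling) and 0.20 (array weights) for Pifithrin-alpha against SMA, -0.14 and -0.28 with the same settings for MW150 against Pifithrin-alpha, and 0.0101 with the mitochondrial covariate for SMN-C3 against WT. With 1 library left out its range was -0.0565 to 0.27 for MW150 against Pifithrin-alpha, -0.0293 to 0.0232 for SMN-C3 against WT and -0.19 to 0.0554 for MW150 against SMA. Abhd11os ranged from -0.38 to 0.26 for MW150 against SMA and from -0.15 to 0.77 for SMA+Pifithrin-alpha against SMA+SMN-C3, and Crip2 from -0.0504 to 0.77 in the latter. The median return ranged from 2.51% to 14.8% under MW150 and from 34.7% to 46.1% under SMN-C3, lowest without SMA 1 in both. Under Pifithrin-alpha it ranged from 14.8%, without WT 1 and SMA+Pifithrin-alpha 3, to 37.3%. The relation of 1700028P14Rik to Cdkn1a was 0.828 without SMA+Pifithrin-alpha 3 (also without the 2 libraries of high mitochondrial share), 0.424 to 0.828 with 1 library left out, 0.625 over the 12 Smn-/- libraries and -0.0534 within groups, where Abhd11os had 0.790. Apart from the value within groups, these values of 1700028P14Rik include its gap to SMA+SMN-C3 and are no test.

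No pairing by replicate number was seen in correlations of the libraries' within-group deviations, though values this weak cannot exclude one. Same-numbered libraries had correlations of -0.34 to 0.29 in 30 pairs, 4 of them over 0.1. Different-numbered libraries had -0.25 to 0.34 in 60 pairs, 16 of them over 0.1. Of 15 libraries, 4 correlated best with their own number. With the replicate block, limma called 7 genes instead of 1 in SMA+MW150 against SMA+SMN-C3, none of them among the 5, and 4 instead of 3 of the 5 against WT under MW150, and r with Cdkn1a was 0.964 for Dcxr and 0.949 for Crip2.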
